A study of Homo sapiens with 6 samples.

Results

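Aminoacyl-tRNA synthetases are the enzymes that join each amino acid to its transfer RNA before it can be used by the ribosome. The genes analysed here are 35 synthetases chosen by name, 19 that serve the cytosol and 16 that serve mitochondria, and each was found through the probe sets that the array's annotation assigns to its symbol or to its older alias. Of these, 32 had a probe set carrying their symbol alone, 17 cytosolic and 15 mitochondrial, out of 19775 genes so measured. MARS1, QARS1 and TARS2, the enzymes for methionine and glutamine in the cytosol and for threonine in mitochondria, lay only on probe sets that also carry a microRNA symbol, and no value is given for them.

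The arrays came from KHOS and U-2OS, both established human osteosarcoma lines. KHOS is a derivative of the HOS line transformed with the Kirsten murine sarcoma virus. Affymetrix U133 Plus 2.0 arrays were used, with 1 in each line for a control, 1 for cells given the miR-null plasmid, a control vector, and 1 for cells given the plasmid that expresses the microRNA miR-1, which makes 6 arrays. Plasmids were delivered for 48 hours with the lipid reagents Lipofectamine LTX and Plus, and every array held RNA pooled from 3 flasks, so a line and treatment have no replicate. The labels name no plasmid for the control arrays, and whether those cells received the lipid reagents is unknown here. A line is thus represented by 1 culture history, and the 2 vector arrays of a line share its single control.

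The cytosolic synthetases work on transfer RNAs encoded in the nucleus, and several of them, with scaffold proteins, form a multisynthetase complex. The mitochondrial enzymes, whose symbols end in 2, are made in the cytosol from nuclear genes, imported, and charge the transfer RNAs encoded by mitochondrial DNA. GARS1 and KARS1 are exceptions, since each gene encodes both the cytosolic and the mitochondrial enzyme. When charged transfer RNA runs short, or under other stresses that phosphorylate the initiation factor eIF2, the transcription factor ATF4 is made, and many genes of the cytosolic enzymes are among its reported targets.

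The C/EBP-ATF response element is the DNA sequence that ATF4 binds together with a C/EBP partner. Its core, TGATGNAA, was searched on both strands in RefSeq promoter windows on GRCh38.p14, each reaching from 250 bases before to 50 bases after a start site, and 30 of the 35 synthetases had at least 1 window, 39 windows in all. The core was present in 7 of 16 cytosolic and 1 of 14 mitochondrial members. Over all genes with a window, 4.46% held it, and over all windows of the same length 3.62%. The 30 bases around each match are given 5′ to 3′ in the direction of the gene, with the core in capitals, because these members are compared below with those that lack it.
AARS1: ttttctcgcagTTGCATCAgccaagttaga
CARS1: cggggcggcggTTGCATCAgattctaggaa
GARS1: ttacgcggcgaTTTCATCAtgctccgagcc
IARS1: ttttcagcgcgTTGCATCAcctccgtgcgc
MARS1: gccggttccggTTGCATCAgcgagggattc
NARS1: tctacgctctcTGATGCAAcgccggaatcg
TARS1: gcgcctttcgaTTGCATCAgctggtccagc
YARS2: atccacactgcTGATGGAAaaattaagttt

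The AARS1 match was at chr16:70289675-70289704, the CARS1 match at chr11:3057407-3057436 and the GARS1 match at chr7:30594834-30594863. Those of IARS1, MARS1 and NARS1 were at chr9:92293692-92293721, chr12:57488053-57488082 and chr18:57621804-57621833. TARS1 had its match at chr5:33440956-33440985, and YARS2, the only mitochondrial member with one, at chr12:32756076-32756105. AARS1, CARS1, IARS1, NARS1 and YARS2 are on the minus strand and the others on the plus strand. The core of CARS1, MARS1, IARS1 and GARS1 began 2, 4, 13 and 33 bases before the start site, counted for GARS1 from the later of its starts in the table, and that of AARS1 and YARS2 187 and 197 bases before it, while those of TARS1 and NARS1 began 2 and 14 bases after it. A match of letters is not evidence of binding in these cells. YARS1, LARS1, VARS1, VARS2 and AARS2 had no window.

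HARS1 and HARS2, the cytosolic and mitochondrial histidine enzymes, lie head to head and are transcribed away from each other. The 84 bases between their start sites are the whole stretch that separates these genes, chr5:140691371-140691454 on GRCh38.p14, shown on the plus strand because both members differed between the lines.
HARS1-HARS2: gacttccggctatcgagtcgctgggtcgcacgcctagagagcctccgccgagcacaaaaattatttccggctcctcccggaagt

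The mature miR-1-3p sequence from RefSeq is shown because miR-1 is what the vectors differ in, with the seed, bases 2 to 8, in capitals. A seed is the stretch through which a microRNA pairs with its target transcripts.
hsa-miR-1-3p: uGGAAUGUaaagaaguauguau

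Values are log2 expression as deposited, so a difference of 1 is a doubling. One probe set stood for each gene, the one with the highest mean over the 6 arrays, and genes were tested where that mean was at least 5.11, the median over the array's probe sets. All 32 measured synthetases were above it, among 12958 genes tested. A difference passed where limma gave a Benjamini-Hochberg adjusted p below 0.05 over all those genes. The values of a line are listed in the order control, miR-null, miR-1. For changes within 1 line, which have no replicate and no test, a gene was counted where both vector arrays lay at least 1.2-fold from that line's control, 1.2-fold being the size named in the study's own criterion.

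Array medians lay between 4.98 and 5.15. Of the mesenchymal markers, 4 of 6 were above 5.11 on every array, among them VIM, SPARC and CD44. None of the 4 osteoblast markers was: ALPL, IBSP and SP7 were below it on all arrays, and RUNX2, a transcription factor of the bone lineage, was at 8.98 to 9.85 in KHOS but at 6.74, 4.72 and 4.23 in U-2OS. The epithelial list had 3 of 5 members above it, EPCAM, KRT8 and KRT18, the blood list 1 of 4, HBB, and the endothelial list 1 of 3, PECAM1, while PTPRC and CD14 of blood and CDH5 of endothelium were below it on all arrays.

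The first comparison set the vector arrays against the control, in KHOS. In this line 6 of 17 cytosolic synthetases were higher on both vector arrays and 0 were lower, where 15.8% of all genes tested were higher and 10.6% lower. Of the 15 mitochondrial enzymes 0 were higher and 2 were lower, IARS2 and PARS2, a count that became 4 after quantile normalization and 6 without the KHOS miR-null array. The median change was 0.16 for the cytosolic and -0.14 for the mitochondrial enzymes, against -0.01 over all genes tested. In these bulk samples fewer cells of a type and less RNA per cell cannot be told apart.

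WARS1, which charges tryptophan and is also a well-known interferon-gamma-induced gene, stood at 10.87 on the KHOS control array, 12.41 with miR-null and 11.92 with miR-1. In U-2OS the same probe set read 9.57, 9.51 and 9.40. Both KHOS vector arrays were therefore well above their control, by 2.46-fold as their mean, while the U-2OS arrays lay within 0.17 of one another on this probe set. The other WARS1 probe set above the filter read 7.99, 8.45 and 8.58 in U-2OS, past 1.2-fold higher on both vector arrays, and 9.17, 10.86 and 10.24 in KHOS.

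The serine enzyme SARS1 read 11.28, 12.30 and 12.09 in KHOS, against 11.46, 11.59 and 11.69 in U-2OS. For CARS1, the cysteine enzyme, the KHOS arrays held 11.46, 12.03 and 12.14, and the U-2OS arrays 11.74, 11.89 and 11.90. On the probe sets used, each vector array of these genes was above the control in both lines. The distance was larger in KHOS, where the folds were 1.89 for SARS1 and 1.54 for CARS1, against 1.14 and 1.11 in U-2OS.

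AARS1 charges alanine, and its values were 9.99, 10.72 and 10.46 in KHOS, against 9.90, 9.95 and 10.10 in U-2OS. GARS1, the shared glycine enzyme of both compartments, read 12.54, 13.04 and 12.97 in KHOS against 12.54, 12.68 and 12.64 in U-2OS. The tyrosine enzyme YARS1 was at 10.25, 10.83 and 10.76 in KHOS, against 10.95, 10.87 and 10.80 in U-2OS, values given because YARS1 was seen among the 6. The controls of AARS1 and GARS1 were close together in the lines, and the KHOS vector arrays stood above every other array of those genes. YARS1 differed, since its KHOS vector arrays came up to the level that U-2OS already had.

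**Figure D1:**
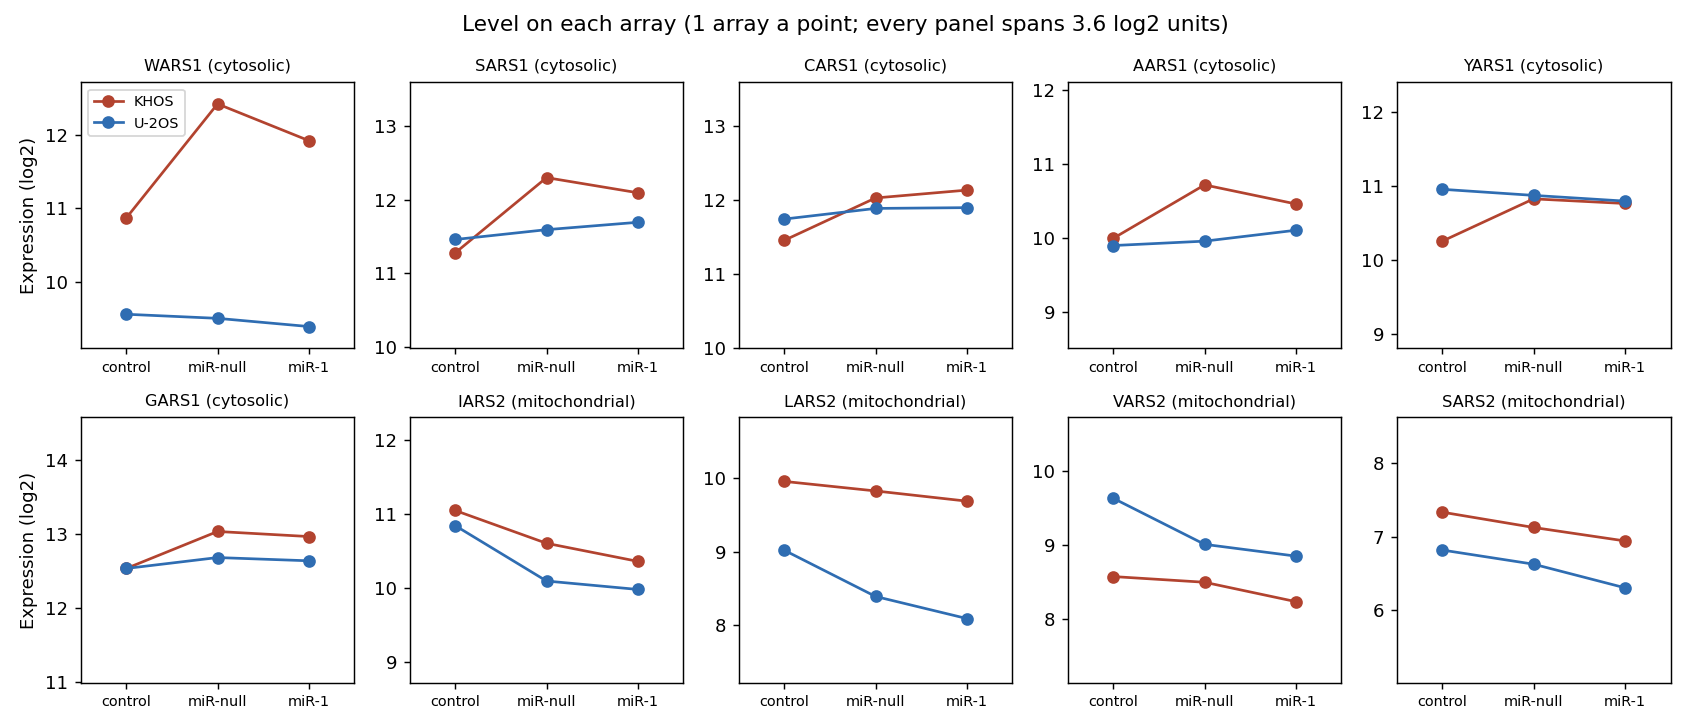
Log2 expression (vertical axis) of 6 cytosolic and 4 mitochondrial synthetases on the control, miR-null and miR-1 arrays, with KHOS in red and U-2OS in blue, 1 array a point. The KHOS vector arrays of the 6 cytosolic genes lie above the KHOS control, WARS1 going from 10.87 to 12.41 and 11.92, while IARS2 is below its control in both lines.

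Not all cytosolic enzymes did this in KHOS. The 12 that are reported ATF4 targets and were measured had a median change of 0.35 in KHOS and included all 6 that were higher, and the other 5, FARSA, FARSB, HARS1, KARS1 and RARS1, had a median of -0.08 with 0 higher. In U-2OS the medians of these groups were -0.12 and -0.23. KARS1 changed by -0.08 in KHOS and by -0.23 in U-2OS. The grouping was written with earlier results of these arrays known and is not independent evidence of the direction. The 5 measured enzymes of the multisynthetase complex, EPRS1, IARS1, KARS1, LARS1 and RARS1, had a KHOS median of 0.05 with 0 higher, against 0.34 for the 12 outside it. Of the reported ATF4 targets that were not counted, LARS1 had a difference of 0.24 in KHOS, TARS1 of 0.21, IARS1 of 0.16, EPRS1 of 0.05, NARS1 of -0.03 and VARS1 of -0.06.

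Read against the promoter letters shown above, the 6 measured cytosolic genes with the core ranged from -0.03 for NARS1 to 0.63 for CARS1 in KHOS, with 3 past 1.2-fold, AARS1, CARS1 and GARS1. The 8 with a window and no core ranged from -0.30 for RARS1 to 1.30 for WARS1, with 2 past 1.2-fold, SARS1 and WARS1. The KHOS medians were 0.34 and 0.02, and those of U-2OS 0.00 and -0.22. The members with the largest KHOS changes were thus without the core in these windows, and YARS1 had no window to search.

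The structural classes of synthetases, which differ in the fold of the catalytic domain, were both represented among the 6. CARS1, WARS1 and YARS1 are class I enzymes and AARS1, GARS1 and SARS1 class II. The KHOS medians of the 7 cytosolic class I and 9 cytosolic class II enzymes were 0.24 and 0.04, and EPRS1, which joins one domain of each class, was left out of both.

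In U-2OS the same comparison gave other values. Of the 17 cytosolic enzymes 0 were higher and 4 were lower on both vector arrays, EPRS1, FARSA, RARS1 and VARS1, and of the 15 mitochondrial enzymes 0 were higher and 8 were lower. Over all genes tested 12.9% were higher and 28.0% lower in this line. EPRS1 changed by -0.45 on the probe set used. The median change was -0.20 for the cytosolic and -0.35 for the mitochondrial enzymes, against -0.10 for all genes. With a further quantile normalization the median of all genes moved to 0.04, the counts of lower enzymes became 1 cytosolic and 4 mitochondrial, and 2 mitochondrial enzymes were counted as higher. With the mean of all probe sets of a gene, 2 cytosolic enzymes were counted as higher.

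VARS1, the cytosolic valine enzyme, read 9.28 on the U-2OS control, 8.70 with miR-null and 8.64 with miR-1, and 8.70, 8.65 and 8.63 in KHOS. RARS1, which charges arginine in the complex, was at 11.62, 11.34 and 11.26 in U-2OS and at 11.69, 11.46 and 11.33 in KHOS. For FARSB, the beta subunit of the cytosolic phenylalanine enzyme, the values were 11.46, 11.33 and 11.15 in U-2OS and 11.38, 11.12 and 11.20 in KHOS. On these probe sets the vector arrays of RARS1 and FARSB were below the control in both lines, 1.25-fold and 1.17-fold in U-2OS and 1.23-fold and 1.16-fold in KHOS, whereas for VARS1 the distance was seen in U-2OS, 1.53-fold, and was 1.04-fold in KHOS. The other probe set of FARSB above the filter went the other way in KHOS, with 6.99, 7.49 and 7.60, both vector arrays past 1.2-fold higher, and read 6.06, 5.75 and 5.68 in U-2OS.

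Among the mitochondrial enzymes, IARS2, which charges isoleucine, was lower on both vector arrays in both lines. It stood at 11.05, 10.60 and 10.36 in KHOS, against 10.84, 10.09 and 9.98 in U-2OS, so that all 4 vector arrays were below both controls. The folds were 1.48 in KHOS and 1.75 in U-2OS.

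LARS2, the mitochondrial leucine enzyme, read 9.95, 9.82 and 9.68 in KHOS, against 9.02, 8.39 and 8.09 in U-2OS. VARS2, for valine, was at 8.57, 8.49 and 8.23 in KHOS, against 9.63, 9.01 and 8.85 in U-2OS. NARS2, for asparagine, held 8.76, 8.60 and 8.71 in KHOS, against 10.20, 9.64 and 9.62 in U-2OS. In each of these the U-2OS vector arrays were clearly below their control, by 1.71-fold, 1.63-fold and 1.48-fold, and the KHOS arrays less so, by 1.15-fold, 1.16-fold and 1.08-fold.

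RARS2, the arginine enzyme, was read at 9.52, 9.38 and 9.35 in KHOS, against 8.65, 8.15 and 8.22 in U-2OS. MARS2, which charges methionine, had 7.84, 7.95 and 7.76 in KHOS, against 7.38, 6.90 and 6.95 in U-2OS, and WARS2, for tryptophan, 7.63, 7.57 and 7.41 in KHOS, against 7.73, 7.35 and 7.47 in U-2OS. AARS2, for alanine, was at 7.76, 7.98 and 7.74 in KHOS, against 7.38, 6.91 and 7.01 in U-2OS. AARS2 has another probe set above the filter, which read 0.14 higher with the vectors in U-2OS. On the probe sets used, these 4 complete the 8 that were counted as lower in U-2OS, and none of them was past 1.2-fold on both vector arrays in KHOS.

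SARS2, the mitochondrial serine enzyme, was below the control on all vector arrays without being counted, at 7.33, 7.12 and 6.94 in KHOS, against 6.82, 6.63 and 6.31 in U-2OS. PARS2, for proline, was counted as lower in KHOS, with 7.50, 7.23 and 7.02, but read 6.45, 6.45 and 6.69 in U-2OS. On the probe sets used, the vector changes of the mitochondrial members not yet given were as follows: EARS2 -0.28 and -0.14, FARS2 0.03 and 0.24, CARS2 -0.13 and 0.20, HARS2 -0.01 and -0.09, and YARS2 -0.08 and -0.04, KHOS first. Other probe sets above the filter read -0.91 for FARS2 and -0.73, -0.53 and -0.09 for EARS2 in U-2OS.

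**Figure D2:**
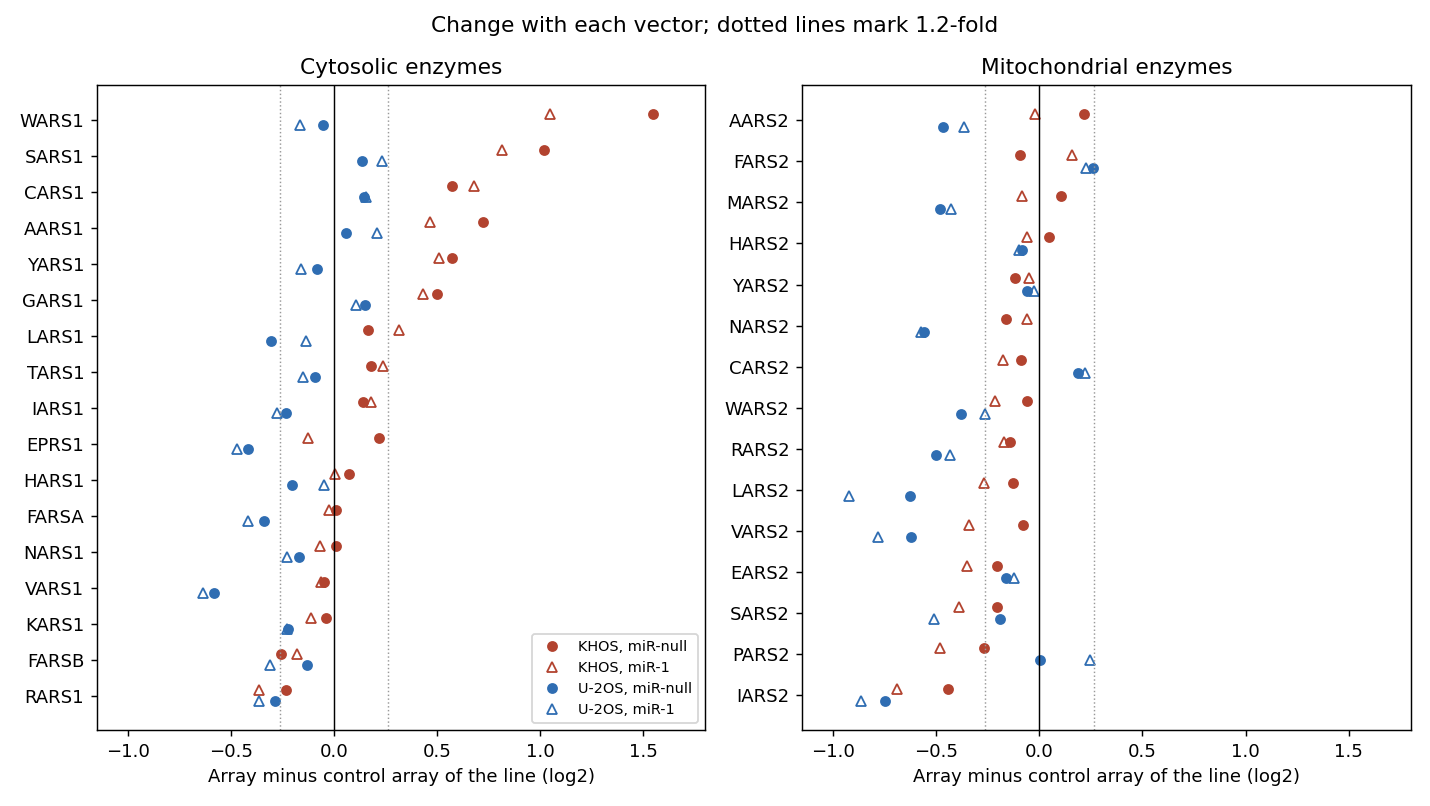
Difference of each vector array from the control array of its line (horizontal axis, log2) for the 17 cytosolic and 15 mitochondrial synthetases, ordered by the mean change in KHOS, with filled circles for miR-null, open triangles for miR-1, KHOS in red and U-2OS in blue. The red symbols of WARS1, SARS1, CARS1, AARS1, YARS1 and GARS1 lie past the dotted 1.2-fold line on the right, and the blue symbols of 8 mitochondrial genes lie past it on the left.

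Tested over both lines, with the line as a block, 0 of 32 synthetases passed limma's adjusted threshold for vector against control, where 0.478% of all genes tested passed. At an unadjusted p below 0.05 there were 6 of the 32 members, 2 higher, SARS1 and CARS1, and 4 lower, IARS2, LARS2, VARS2 and RARS1. Over all genes tested the count was 2587, or 20.0%, so that of the members is near the background. The smallest adjusted p of a member was that of IARS2, 0.067 for a change of -0.69 (SE 0.14). SARS1 had an estimate of 0.55 (SE 0.19, adjusted p 0.17 from limma) and WARS1 of 0.59 (SE 0.31, adjusted p 0.32), the change of WARS1 being 1.30 in KHOS and -0.11 in U-2OS. With the 75th percentile of probe sets as the filter, with the mean of all probe sets of a gene, or with limma's prior variance fitted as a trend on the mean, IARS2 passed and made the count 1. Without the KHOS control array 4 passed as lower, IARS2, LARS2, VARS1 and VARS2, and without the U-2OS control array 2 passed as higher, SARS1 and WARS1. Such a fit holds the change of 1 line against its lone control, with the spread taken from how far the vector arrays of each line lie from one another, and the control is assumed to vary like them. It has no replicate of the change, so these passes are no more than a check of the joint estimate.

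The fitted medians over both lines were -0.04 for the cytosolic and -0.22 for the mitochondrial enzymes, against -0.03 for all genes tested. The distance between the compartments was 0.18, and it was 0.30 without the U-2OS control array. The 95% half-width of a single gene's vector change had a median of 0.36 over all genes, so changes of the size seen for most members are within the error of this design.

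Other properties of the arrays moved with the vectors. The difference between 3′ and 5′ probe sets of ACTB, a sign of RNA quality, was 2.68, 2.89 and 2.90 in KHOS, against 2.40, 2.64 and 2.49 in U-2OS, and that of GAPDH 0.55, 0.59 and 0.53 against 0.42, 0.48 and 0.46. All 4 vector arrays were above their control for ACTB, and 3 of 4 for GAPDH. The mean of 11 spike-in control probe sets, which measure RNA added in the laboratory, was 10.26, 10.60 and 10.46 in KHOS, against 11.25, 11.72 and 12.00 in U-2OS. A probe set for 28S ribosomal RNA read 13.68, 14.07 and 14.49 in KHOS, against 13.79, 14.58 and 14.86 in U-2OS. The interquartile range of the array values was 3.24, 3.32 and 3.36 in KHOS, against 3.07, 2.84 and 2.75 in U-2OS. Their part in the changes of the synthetases was not tested.

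Whether the vector change differed between the lines was tested as an interaction. The spread in this fit came from how the vector arrays of a line differed from one another. Each line's change rested on a lone control array, so variation between controls was not measured. All 17 cytosolic enzymes had the higher change in KHOS, as did 10 of 15 mitochondrial enzymes and 62.3% of all genes tested. After quantile normalization these became 14 of 17, 6 of 15 and 45.1%. None of the 32 passed limma's adjusted threshold, which 2.28% of all genes did. WARS1 came closest, with a difference of 1.41 (SE 0.31, adjusted p 0.060), and 1.13 (limma adjusted p 0.082) with the mean of its probe sets. At an unadjusted p below 0.05 there were 4 of 32, WARS1, SARS1, YARS1 and VARS1, a smaller share than the 2895 of 12958 genes tested. The differences of SARS1, YARS1 and VARS1 were 0.73, 0.66 and 0.55, with adjusted p of 0.14, 0.15 and 0.20. WARS1 passed with the 75th percentile filter and when the miR-null array of U-2OS was left out, and WARS1, SARS1 and YARS1 with limma's prior variance fitted as a trend on the mean.

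Amino acids that have an enzyme in each compartment allow a side by side view. There were 15 such pairs of measured genes, with EPRS1 set against both EARS2 and PARS2 and FARS2 against both FARSA and FARSB, so the pairs are not independent. The cytosolic enzyme had the higher vector change in 12 pairs in KHOS and 8 in U-2OS, and in 7 pairs in both lines. The median gap was 0.42 in KHOS and 0.09 in U-2OS. The widest gap in KHOS was that of WARS1 over WARS2, 1.43, followed by SARS1 over SARS2, 1.21. In U-2OS the leucine, isoleucine, alanine and serine pairs had gaps of 0.55, 0.55, 0.55 and 0.53, each with the mitochondrial enzyme below its control, while FARSA was 0.62 below FARS2 and EPRS1 0.57 below PARS2. The alanine and phenylalanine values depend on the probe set: the other one of AARS2 read 0.14 and the other one of FARS2 -0.91 in U-2OS, the latter below FARSA at -0.38. The histidine pair, with 84 bases between the start sites, had gaps of 0.05 and -0.03.

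**Figure D3:**
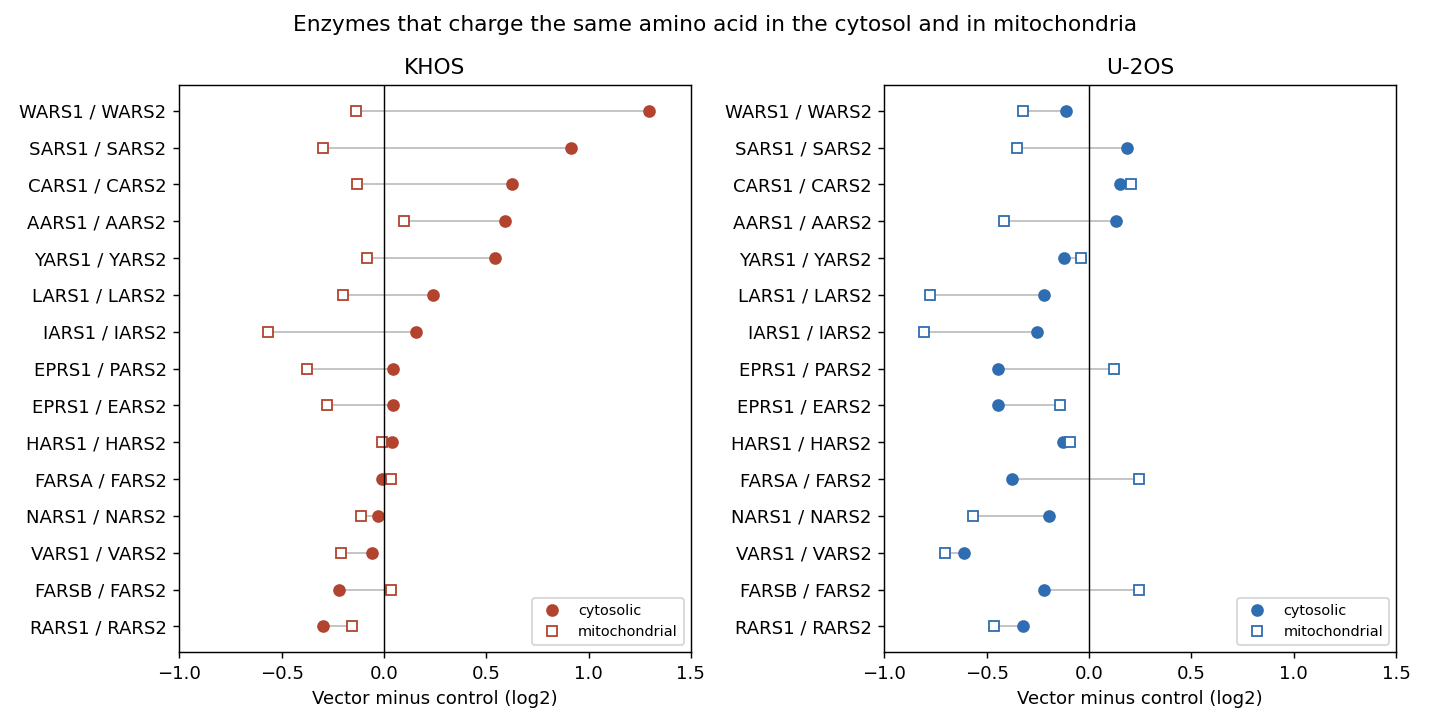
Vector minus control (horizontal axis, log2, mean of the miR-null and miR-1 arrays of a line against its 1 control) for 15 pairs of enzymes that charge the same amino acid, with filled circles for the cytosolic and open squares for the mitochondrial member. In KHOS the circle lies to the right in 12 pairs, in U-2OS in 8.

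Between miR-1 and miR-null, the comparison for which the vectors were made, 0 of 32 synthetases passed, and 0.0% of all genes tested did. No member had an unadjusted p below 0.05 in limma, against 78 of all genes. The spread in this fit included any vector change that differed between the lines, as for WARS1, 1.30 in KHOS and -0.11 in U-2OS. The p-values and intervals therefore do not measure the spread of the miR-1 difference alone. Median differences were -0.05 for the cytosolic and -0.05 for the mitochondrial enzymes, and -0.04 over all genes. The largest estimates were those of WARS1, -0.30 with a 95% interval of 0.89 on either side, and SARS2, -0.25 with 0.41 on either side. LARS2 followed with -0.22 (SE 0.21). WARS1 was lower with miR-1 than with miR-null by 0.50 in KHOS and 0.11 in U-2OS, and SARS2 by 0.18 and 0.32. The intervals leave room for differences of about the size of the vector changes, so the arrays do not show that miR-1 and miR-null act alike on these genes.

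The lines themselves were compared over their 3 matched conditions. Here 18 of 32 synthetases passed, a share of 56.2% beside 54.8% of all genes tested, so the count over both compartments is near the background. Of these 14 were higher in KHOS and 4 lower, where 30.3% of all genes were higher and 24.5% lower. Among the cytosolic enzymes 5 were higher and 1 lower in KHOS, and among the mitochondrial enzymes 9 were higher and 3 lower. The shares that passed were 35.3% of the cytosolic and 80.0% of the mitochondrial enzymes, on either side of the 54.8%. These shares depended on scaling, as given below.

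In the cytosolic group, WARS1 was 2.24 higher in KHOS (SE 0.30, limma adjusted p 0.0014), with the lowest KHOS array above the highest of U-2OS. Its control arrays, at 10.87 in KHOS and 9.57 in U-2OS, were closer together than its vector arrays. FARSA, the alpha subunit of the phenylalanine enzyme, read 8.81, 8.82 and 8.79 in KHOS, against 7.99, 7.66 and 7.58 in U-2OS, a difference of 1.06 (SE 0.15, adjusted p 0.0018). Its partner FARSB differed by -0.08 on the probe set used, and the groups overlapped. The other FARSB probe set above the filter differed by 1.53, and the mean of the probe sets of FARSB by 0.56 (limma adjusted p 0.015), in the direction of FARSA.

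LARS1, which charges leucine, was at 10.73, 10.90 and 11.05 in KHOS, against 10.47, 10.16 and 10.34 in U-2OS. NARS1, for asparagine, read 12.41, 12.42 and 12.35 in KHOS, against 12.10, 11.93 and 11.87 in U-2OS, and HARS1, for histidine, 10.56, 10.64 and 10.57 against 10.26, 10.06 and 10.21. IARS1, for isoleucine, was the cytosolic enzyme that was lower in KHOS, with 11.74, 11.88 and 11.92 against 12.49, 12.25 and 12.21. The arrays of the lines did not overlap for any of these 4 genes. The differences were 0.57, 0.43, 0.42 and -0.47, with adjusted p between 0.024 and 0.047 in limma.

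The largest mitochondrial difference was in LARS2, 1.32 higher in KHOS (SE 0.17, limma adjusted p 0.0013). NARS2 was lower in KHOS, with a difference of -1.13 (SE 0.16, adjusted p 0.0018). RARS2 differed by 1.08, MARS2 by 0.77, AARS2 by 0.73, PARS2 by 0.72, SARS2 by 0.55 and VARS2 by -0.73, with adjusted p between 0.0015 and 0.016. With the mean of all probe sets of a gene AARS2 no longer passed, at 0.34 (adjusted p 0.082), its other probe set reading -0.04. On the probe sets used, each of these was separate between the lines on all 6 arrays, as the values above show.

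HARS2 read 9.68, 9.73 and 9.62 in KHOS, against 8.75, 8.66 and 8.65 in U-2OS, a difference of 0.99 (SE 0.14, limma adjusted p 0.0016), beside 0.42 for its neighbour HARS1. FARS2, the mitochondrial phenylalanine enzyme, was at 8.17, 8.07 and 8.33 against 7.20, 7.46 and 7.42. CARS2, for cysteine, had 8.46, 8.37 and 8.28 against 7.68, 7.87 and 7.90, and it did not pass with the mean of its probe sets, at 0.01 (adjusted p 0.95). YARS2, for tyrosine, was lower in KHOS, with 9.50, 9.38 and 9.45 against 10.22, 10.16 and 10.20. For all 4 the lines did not overlap.

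**Figure D4:**
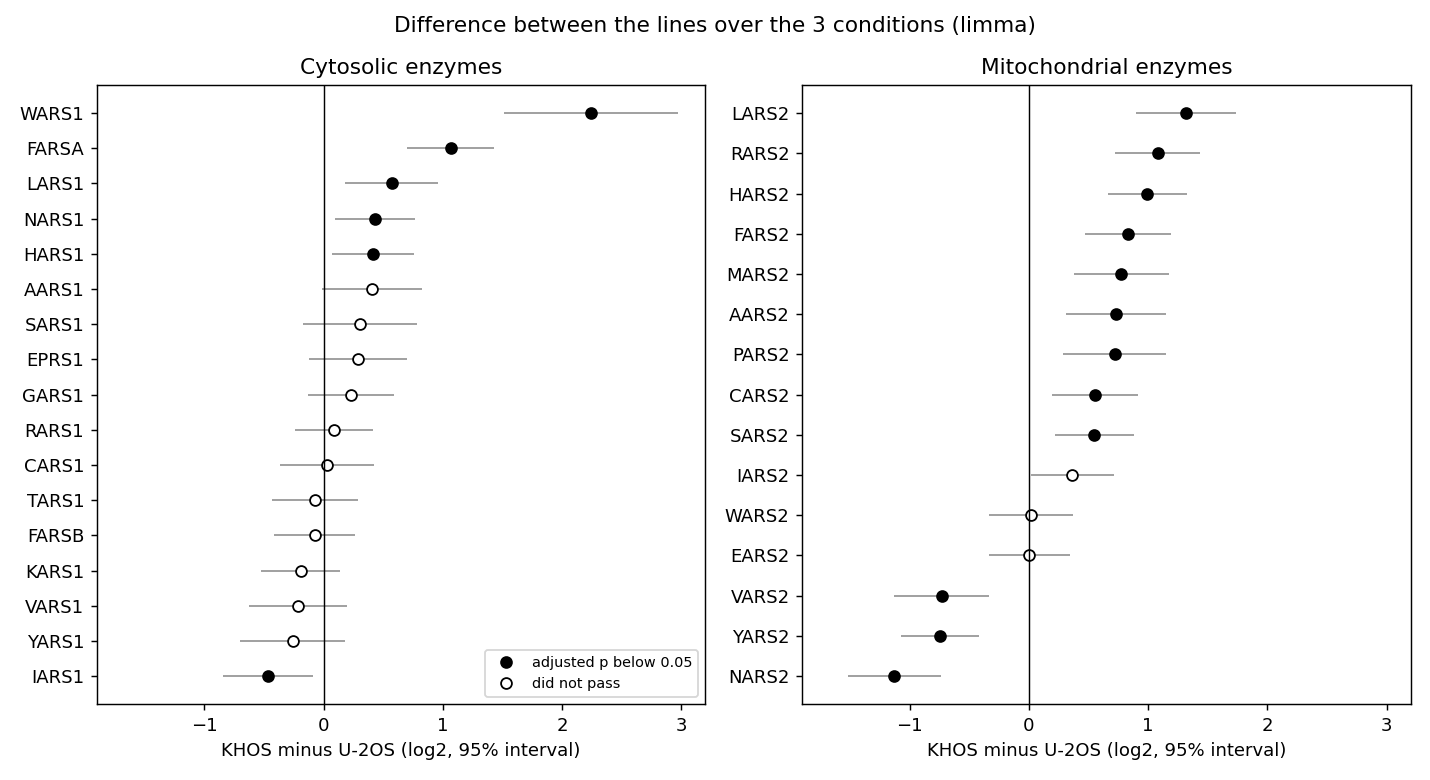
KHOS minus U-2OS (horizontal axis, log2) over the 3 matched conditions for the 17 cytosolic and 15 mitochondrial synthetases, with the 95% interval from limma as a grey line and filled circles where the adjusted p was below 0.05. WARS1 at 2.24 and LARS2 at 1.32 are the highest of their groups and NARS2 at -1.13 is the lowest.

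The split by direction depended on scaling. After quantile normalization, which moved the median of all genes from -0.00 to -0.17, 12 synthetases passed, 6 higher and 6 lower in KHOS, and 10 were among the 18. The cytosolic split became 2 higher and 3 lower and the mitochondrial 4 and 3. CARS1, RARS1, EARS2 and WARS2 changed sign, and none of them had passed. The 8 that no longer passed were FARS2 (adjusted p 0.051), AARS2 (0.057), LARS1 (0.071), SARS2 (0.076), NARS1 (0.095), PARS2 (0.098), HARS1 (0.28) and CARS2 (0.38), while VARS1 and YARS1 passed as lower. Of the 18, 8 held when each array was left out in turn: FARSA, WARS1, FARS2, HARS2, LARS2, NARS2, RARS2 and VARS2. The miR-null array of either line cost 10 calls, the miR-1 array of either line 5, and the control array of either line 1, IARS1. The lines gave the same calls here by design. An array left without its match in the other line does not enter the difference, so each condition left out amounts to 1 fit.

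Different probe sets of a gene did not always read the same change. Of the 18 synthetases with several probe sets above the filter, 11 had the same sign on all of them for the vector change in KHOS, 11 in U-2OS and 9 for the difference between the lines. The KHOS change of the 4 higher genes with several probe sets kept its sign: WARS1 1.30 and 1.38, SARS1 0.92 and 1.18, CARS1 from 0.63 to 0.76, and YARS1 0.54 and 0.37. In U-2OS the other probe sets of WARS1 and SARS1 read 0.53 and 0.60, where those used read -0.11 and 0.18. The other CARS1 probe sets above the filter read 0.32 and -0.09 in U-2OS, where that used read 0.15. The probe sets of TARS1 read 0.21 and 1.35 in KHOS, against -0.12 and 1.19 in U-2OS. Its second probe set would thus have been past 1.2-fold in both lines. That probe set was at 4.99, 5.93 and 6.75 in KHOS, against 4.94, 5.96 and 6.30 in U-2OS. Both controls were below the level filter, and its mean passed only through the vector arrays, so it is a weak second reading of TARS1. VARS1, lower in U-2OS by -0.61 on the probe set used, read 0.11 on the other. Between the lines, WARS2 differed by 0.02 and 1.98, FARSB by -0.08 and 1.53, and CARS2 by 0.55 and -0.55. Each probe set reads only the transcripts that hold its target sequence, and the isoforms behind these differences were not analysed here.

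**Figure D5:**
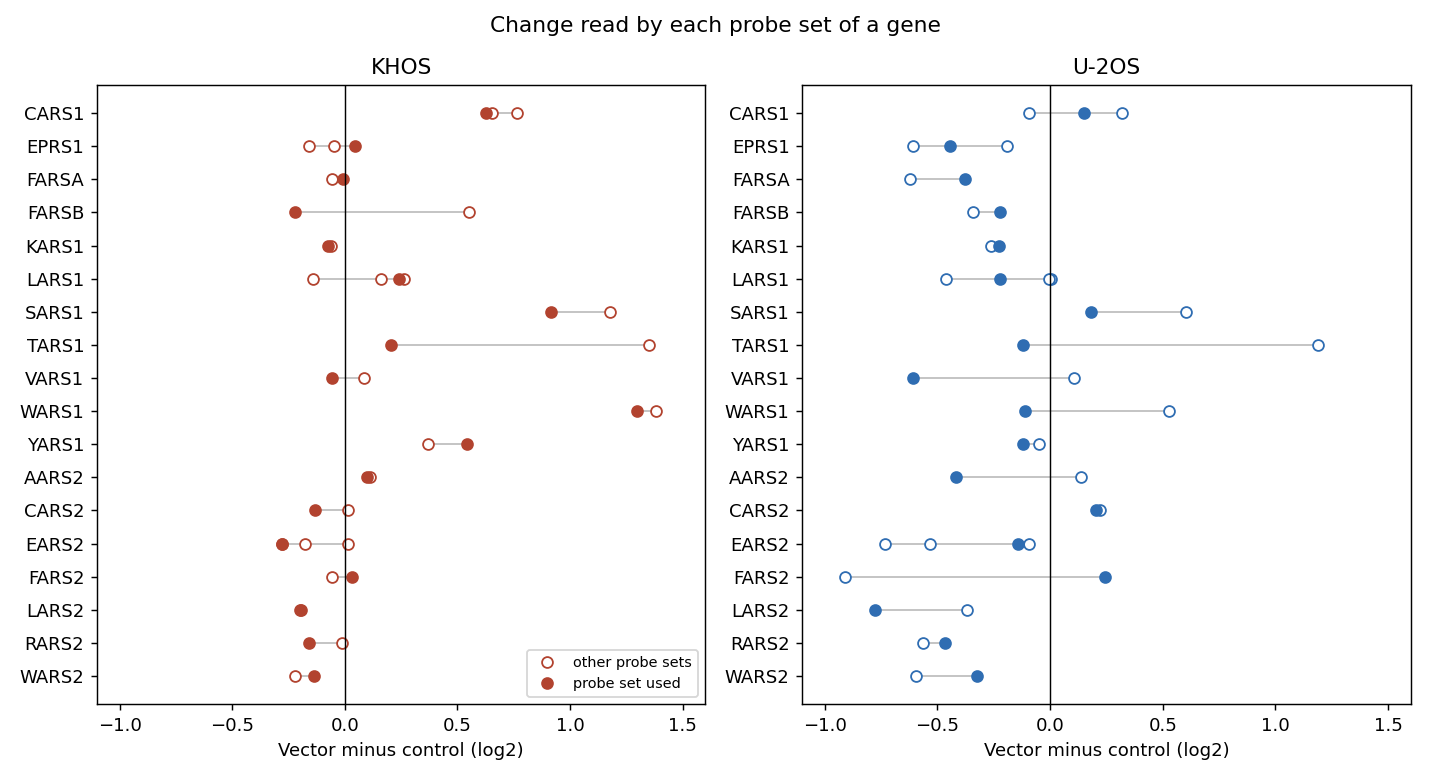
Vector minus control (horizontal axis, log2) read by each probe set above the filter for the 18 synthetases that have several, with the probe set used filled and the others open, KHOS on the left and U-2OS on the right. The probe sets of WARS1, SARS1, CARS1 and YARS1 lie to the right of 0 in KHOS, and those of TARS1, FARSB and FARS2 lie far apart in at least 1 line.

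Other genes of the same pathways were described from lists. Of 30 tested genes of the ATF4 pathway, 9 rose with the vectors over both lines and 0 fell in limma, where 0.478% of all genes tested passed in either direction. The kinases that phosphorylate eIF2 were part of the list, which was chosen with earlier results of these data known. Those 9 were DDIT3, a stress transcription factor, at 1.96 (adjusted p 0.013), CTH, a cysteine synthesis enzyme, at 1.85, PPP1R15A, which directs dephosphorylation of eIF2, at 1.84, SESN2 at 1.55, DDIT4 at 1.33, CEBPG at 1.27, TRIB3 at 1.24, CEBPB at 1.16 and SLC7A11, a cystine transporter subunit, at 1.11. The median of the list was 0.61 in KHOS and 0.14 in U-2OS, with 22 members past 1.2-fold higher and 0 lower in KHOS, and 13 higher and 5 lower in U-2OS, beside 15.8% higher and 10.6% lower, and 12.9% higher and 28.0% lower, over all genes tested. SLC3A2, CHAC1 and ASNS were the largest of those that did not pass, with SLC3A2 at 1.02 and CHAC1 at 0.69 over both lines. ASNS, which makes asparagine, was at 1.24 in KHOS and 0.04 in U-2OS. For ASNS the difference between these, 1.20, had a limma adjusted p of 0.062. ATF4 itself was at 0.45 and 0.15. DDIT3, with 2.06 and 1.85, was thus well above control in both lines.

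None of the other 5 lists had a gene that passed in limma, and 12 of their 70 tested genes had an unadjusted p below 0.05, a share of 17.1% beside 20.0% over all genes tested. The 8 other synthetases and complex scaffolds had a median of 0.07 in KHOS and -0.22 in U-2OS, with TARS3 at 0.06 and -0.76, SEPSECS at 0.78 and -0.22 and the scaffold AIMP1 at 0.39 and 0.07. For 23 tRNA processing and export genes the medians were 0.00 and -0.27, and POP1, POP5 and ELAC2, which act in trimming the ends of transfer RNA, were at -0.51 and -1.21, -0.58 and -0.54, and -0.28 and -0.40. The 20 genes of RNA polymerase III, which transcribes transfer RNA, had medians of 0.18 and -0.04, with BRF2 at 0.48 and 0.69, POLR3B at -0.43 and -0.73 and POLR3C at 0.86 and 0.01. The 8 cytosolic elongation factors and their regulators had medians of 0.03 and -0.13, and EEF2K, GTPBP1 and EIF5A were at -0.31 and -1.33, 0.38 and 0.41, and 0.06 and -0.44. The 11 mitochondrial translation factors had medians of 0.01 and -0.26, with TUFM at -0.24 and -0.31, GFM1 at -0.21 and -0.30 and MTIF3 at -0.20 and -0.23, KHOS first throughout.

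WARS1 was also set beside interferon-gamma-induced genes, 4 tested of 5 named, a list added after its values were seen. In KHOS the vector change was 1.06 for IRF1, a transcription factor of that response, 2.58 for GBP1, 1.38 for TAP1 and 1.24 for PSMB9. All were past 1.2-fold on both vector arrays as WARS1 was, where 15.8% of all genes tested were higher. In U-2OS the changes were 0.50, -0.78, -0.15 and -1.49. The vector change was higher in KHOS by 3.36 for GBP1, 2.73 for PSMB9, 1.53 for TAP1 and 0.56 for IRF1. Each line has a lone control array in that difference, so variation between controls was not measured. GBP1 read 5.41, 8.31 and 7.68 in KHOS, against 5.46, 4.91 and 4.45 in U-2OS. Its controls were thus close to the level filter and its U-2OS vector arrays below it. The mean of GBP1 passed the filter only through the KHOS vector arrays. The U-2OS change of GBP1 therefore rests on values around the filter, which limits what its difference between the lines can show. The part of these 4 genes in the WARS1 change was not tested.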

How the data were processed

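The values are log2 expression that the authors computed by RMA (Qlucore 3.2, per the series' design text and the submitters' processing notes), and they were used as deposited. Of 54675 probe sets, 62 were control probe sets and stayed out of the tests, 41091 carried 1 gene symbol in the array's annotation and 1801 several. Probe sets with several symbols were used for no gene. RMA narrows small differences between low values, and pooling 3 flasks removes the spread between cultures, so the p-values do not measure it. The spread behind each p-value is what its fit left over. For vector against control it included how the vector change differed between the lines and how miR-1 differed from miR-null. For the comparison of the lines it was how their difference varied over the conditions. The fit for miR-1 against miR-null shared that spread, so a vector change that differed between the lines entered it. For the interaction the spread was how miR-1 differed from miR-null within each line, with a lone control array in each. Array spread cannot be told apart from these differences.

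Differences were fitted by lmFit and eBayes of limma 3.58.1, run in R 4.3.3, over 12958 genes. Vector against control had the line as a block and 3 residual degrees of freedom, and the other fits had 2. The line pairs the arrays, since the labels name it for each. The fitting was tested on simulated data. The 6 arrays are the limit of precision.

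The members, lists and tests were chosen with earlier results of these data known. Every measured member is given. All 6 arrays are shown for members that passed a comparison and for the 8 with the largest vector change in each compartment, and companion lists are represented by genes that passed or else by the 3 largest changes. Alternatives were quantile normalization, other level filters, other handling of probe sets, other models, the Mann-Whitney test named by the study with its 1.2-fold change, and each array left out. Promoter and microRNA sequences are from RefSeq tables on GRCh38.p14.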

Additional observations from a re-analysis of the deposited data

How the results depend on the processing

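With 0 members passing for vector against control, the 75th percentile filter, the mean of all probe sets and the prior variance that follows the mean each gave 1, and leaving out arrays gave 0 to 4. For the line difference in the vector change, also 0, the 75th percentile filter gave 1, the prior that follows the mean 3, and leaving out arrays 0 to 1; it could not be fitted without either control array. For KHOS against U-2OS the 18 became 8 to 21 with arrays left out, and 0 with the exact Mann-Whitney test, which cannot go below p 0.1 in that design, nor below 0.133 for the vectors or 0.333 for miR-1. Dropping the line as a block left 0 members passing for vector against control and 0 for miR-1 against miR-null. No alternative gave a member for miR-1 against miR-null.

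The distance of 0.18 between the compartments ran from 0.15 to 0.30 with arrays left out. Quantile normalization turned the KHOS count of lower mitochondrial enzymes from 2 to 4, and the U-2OS counts to 1 lower cytosolic, 2 higher mitochondrial and 4 lower mitochondrial. With 1 vector array, KHOS had 0 to 1 lower cytosolic and 2 to 6 lower mitochondrial enzymes. The mean of all probe sets gave 2 higher cytosolic enzymes in U-2OS, and turned the line difference of FARSB to 0.56 and of EARS2 to -0.47; between the lines it gave 20 members, 16 of them among the 18, without AARS2 and CARS2. The counts within a line under these settings were chosen after seeing the data. The causes were not tested.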
